A study of Mus musculus with 6 samples.

Results

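The transforming growth factor beta (TGF-beta) pathway was followed through 10 genes in stimulated natural regulatory T cells (nTreg cells) that carried or lacked a T cell deletion of the splicing factor SRSF1. Gene symbols are in capitals, as in the deposited tables. The genes were taken by name, with earlier results of these data known: TGFB1, LRRC32, ITGB8, ITGAV, TGFBR1, TGFBR2, SMAD3, SMAD7, LDLRAD4 and ITGAE. All 10 were present among 24982 gene symbols in the count table, and all 10 were among the 11772 genes that passed the filter on low counts. The KO group was Srsf1-flox/flox dLck.Cre, in which Cre is driven by the distal Lck promoter, active in T cells. The WT group is labelled wild type, with no allele named. Both groups were mice of strain B6.129, 8 to 10 weeks old, with 3 libraries each. The CD4+CD25+CD127lo cells were sorted from spleen T cells and then kept for 72 h with anti-CD3 and anti-CD28 (2 μg/ml each) and recombinant interleukin-2 (10 ng/ml).

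TGF-beta is made as a latent complex, in which the mature cytokine is held by its own propeptide. On activated Treg cells the complex is tethered to the surface by GARP, the product of LRRC32, and the integrin alpha-v beta-8, a pair of the ITGAV and ITGB8 products, can release the cytokine. Released TGF-beta joins the receptors TGFBR1 and TGFBR2, which activate SMAD3 (with SMAD2). SMAD7 and the product of LDLRAD4 dampen the signal, and ITGAE, which encodes the CD103 integrin chain, is a gene that TGF-beta induces in T cells.

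Total counts were 20373649, 13241964 and 10183626 in KO replicates 1 to 3, and 23263741, 25908166 and 27562046 in libraries labelled WT 1 to 3. SRSF1 itself was at 438, 812 and 787 CPM (normalised counts scaled to library size) in KO replicates 1 to 3, against 1214, 1230 and 755 CPM in libraries labelled WT 1 to 3. The library labelled WT replicate 3 thus lay below KO replicates 2 and 3. These values were not split by exon, so reads from SRSF1 exons that Cre leaves in place could enter them. The cause of the SRSF1 levels was not tested, and groups follow the labels. Without the library labelled WT replicate 3, all 10 log2 fold changes given below remained above 0. KO replicate 1 stood apart, with r = 0.900 to 0.927 to the other libraries across genes, against 0.945 to 0.989 among the other 5. Its difference from the WT mean rose with the GC content of the transcript (Spearman rho = 0.792 across 11701 genes), against rho of -0.117 and -0.0906 for KO replicates 2 and 3 and -0.367 to 0.195 for the WT libraries. Genes are not independent replicates, and this is a description.

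The members span that range of GC content. Their longest coding transcripts in GENCODE vM21 held 62.5% G and C for TGFB1, 58.3% for LRRC32, 56.9% for SMAD7, 53.1% for SMAD3, 52.1% for LDLRAD4, 51.4% for ITGAE, 49.6% for TGFBR2, 43.55% for ITGAV, 41.0% for TGFBR1 and 40.4% for ITGB8, against a median of 49.9% over the genes tested. TGFB1 and ITGB8, the richest and the poorest, are shown by 150 bases from the middle of their coding sequence (GENCODE vM21, mRNA strand, with G and C in capitals), holding 52.0% and 42.0% G and C.
TGFB1: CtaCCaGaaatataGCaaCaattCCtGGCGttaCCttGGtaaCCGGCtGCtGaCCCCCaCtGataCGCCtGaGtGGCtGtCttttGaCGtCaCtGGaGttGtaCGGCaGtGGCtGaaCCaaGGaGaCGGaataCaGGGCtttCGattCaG
ITGB8: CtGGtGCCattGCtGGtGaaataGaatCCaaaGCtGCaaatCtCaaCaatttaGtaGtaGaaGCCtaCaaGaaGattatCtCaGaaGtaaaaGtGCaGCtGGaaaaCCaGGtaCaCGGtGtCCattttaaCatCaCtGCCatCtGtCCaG

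Because of that trend, each member is given below from all 6 libraries, without KO replicate 1, and after a correction for GC content and length. The last was chosen after the data were seen.

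**Figure D1:**
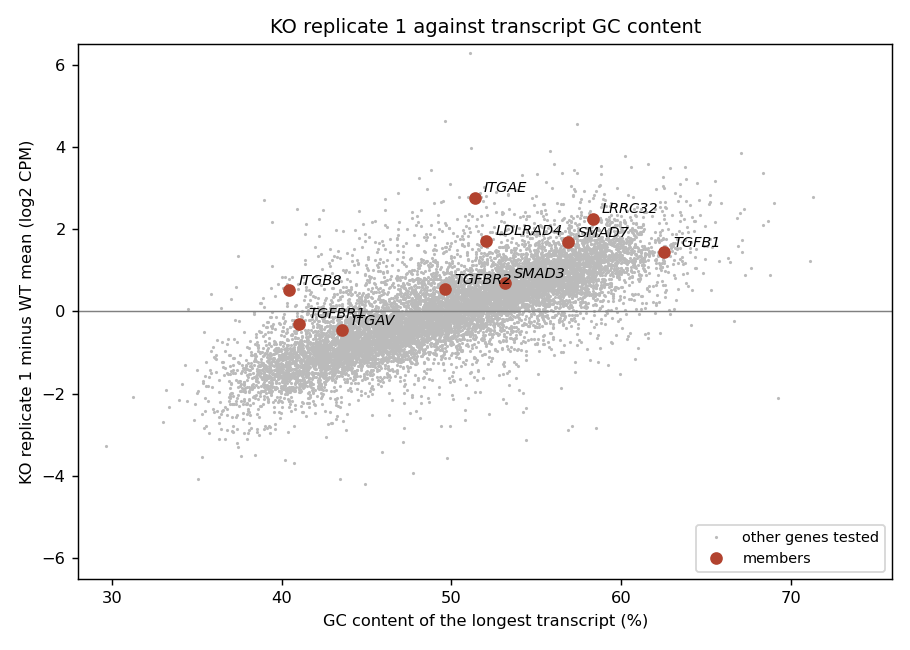
Each point is a gene, with the GC content of its longest transcript in percent on the x axis and KO replicate 1 minus the WT mean in log2 CPM on the y axis. Members are the named red points, and 1 of 11701 genes lies outside the axes. The values climb with GC content, and TGFB1 (62.5% GC) and SMAD7 (56.9%) lie within the cloud while ITGAE (51.4%), LDLRAD4 (52.1%) and ITGB8 (40.4%) lie near its upper edge.

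The comparison asked whether the pathway's genes differ between Srsf1 KO and WT nTreg cells. All 10 members had a log2 fold change above 0, as did 51.6% of all genes tested, with a median of +0.82 for the members and +0.02 for all genes. Since earlier results of these data were known when members were chosen, shares of members beside shares of all genes are a description. The members with the smallest p were LDLRAD4 (+1.69, SE 0.28) and LRRC32 (+1.48, SE 0.41). ITGAE had the largest value (+1.95, SE 0.59), with overlapping groups. Over all genes, edgeR's quasi-likelihood test with Benjamini-Hochberg adjustment called 0 of 10 members at 0.05, and 0.017% of all genes. At an unadjusted p under 0.05 it placed 4 members higher in KO (LDLRAD4, LRRC32, ITGAE and ITGB8), against 4.75% of all genes. DESeq2 called LDLRAD4 alone, 1 of 10, against 0.799% of all genes called higher. After the GC and length correction, edgeR called LDLRAD4 alone, against 0.0855% of all genes called higher.

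**Figure D2:**
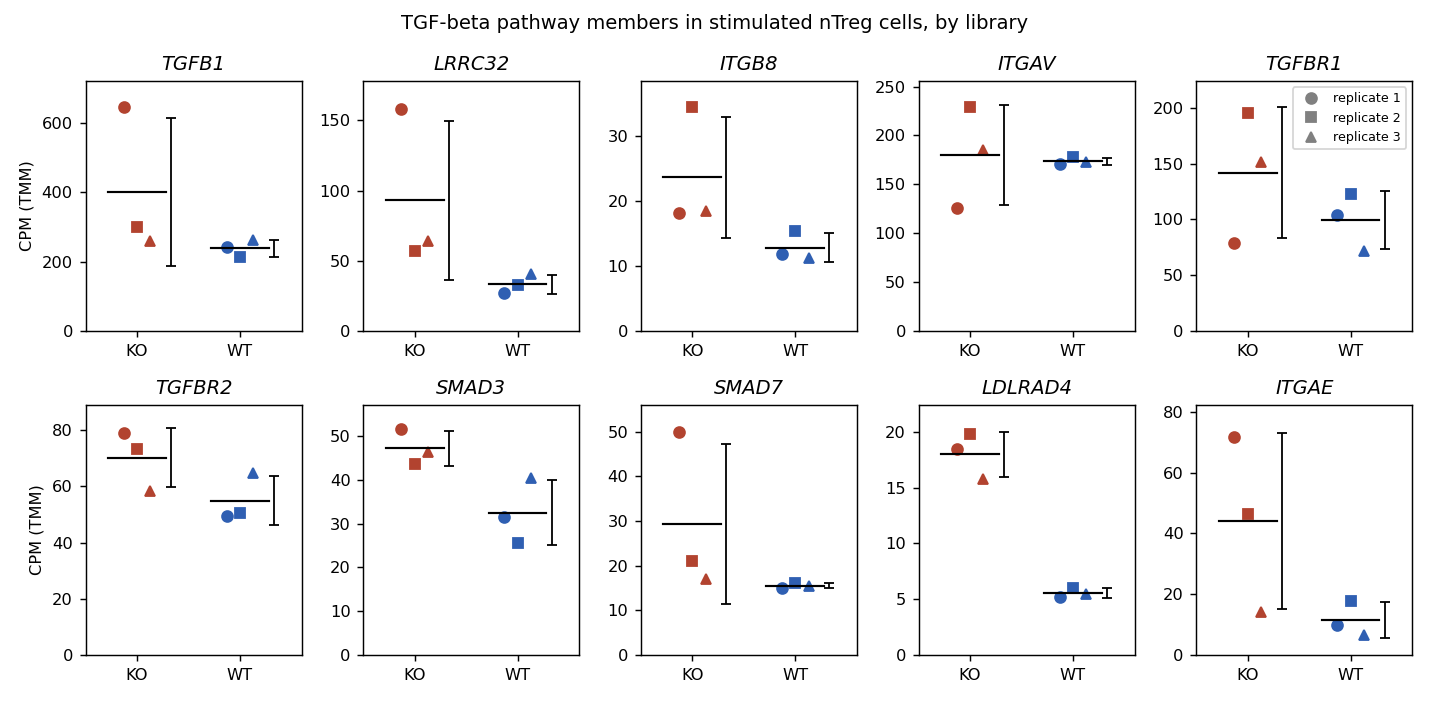
CPM of each member (y axis, from 0) in the KO libraries (red, left) and the WT libraries (blue, right). Marker shapes are replicate numbers, horizontal lines are group means and bars are SD over 3 libraries. The 3 KO values of LDLRAD4 (15.7 to 19.8 CPM) lie above its WT values (5.15 to 6.04 CPM), while KO replicate 1 alone sets the upper end for TGFB1, LRRC32 and SMAD7.

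TGFB1, the ligand, was the most abundant member per length in both groups, and it stood well above WT in KO replicate 1 alone. It was measured at 644, 299 and 258 CPM in KO replicates 1 to 3 and at 241, 212 and 262 CPM in libraries labelled WT 1 to 3. KO replicate 3 lay below the library labelled WT replicate 3, so the groups overlapped. Its log2 fold change was +0.75 (SE 0.36, edgeR adjusted p = 0.669). It was +0.23 (SE 0.16) without KO replicate 1 and +0.24 (SE 0.19) after the GC and length correction. The genes with the profiles most like it over the 6 libraries included CRTC3 (Pearson r = 0.998) and DPM3 (0.997), both highest in KO replicate 1.

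LRRC32, which encodes the docking receptor GARP, was higher in every KO library. It was at 158, 56.97 and 63.9 CPM in KO replicates 1 to 3, and at 26.9, 32.9 and 40.5 CPM in libraries labelled WT 1 to 3. The lowest KO library lay above the highest WT library, with KO replicate 1 far above the others. The log2 fold change of +1.48 (SE 0.41), or 2.78-fold, had an edgeR adjusted p of 0.456 and a DESeq2 adjusted p of 0.0549 (range over all alternatives 0.0427 to 0.999). It was +0.85 (SE 0.20, edgeR adjusted p = 0.257) without KO replicate 1. After the GC and length correction it was +0.98 (SE 0.14, edgeR adjusted p = 0.0616). In 2 against 2 libraries, without KO replicate 1 and without the library labelled WT replicate 3, it was +1.03 (SE 0.18) and passed (edgeR adjusted p = 0.0427), as did LDLRAD4, so that 2 of 10 members were called there, against 0.554% of all genes called higher. With the correction added to that fit, LRRC32 stood at +0.95 (edgeR adjusted p = 0.0565), and 1 of 10 members, LDLRAD4, was called against 0.226% of all genes.

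The chains of the integrin that activates latent TGF-beta are given apart. ITGB8, the beta-8 chain, was at 18.2, 34.5 and 18.4 CPM in KO replicates 1 to 3 and at 11.9, 15.4 and 11.3 CPM in libraries labelled WT 1 to 3. No KO library lay within the WT range, and KO replicate 2 was the highest. This gave a log2 fold change of +0.88 (SE 0.34, edgeR adjusted p = 0.639), +1.04 (SE 0.29) without KO replicate 1, +0.51 without KO replicate 2 and +1.26 (SE 0.32) after the GC and length correction. ITGAV, the alpha-v chain, which also pairs with other beta chains, was at 126, 229 and 185 CPM in KO replicates 1 to 3 and at 171, 178 and 173 CPM in libraries labelled WT 1 to 3. The KO values spread by 28.5% (coefficient of variation) and the WT values by 1.97%, with KO replicate 1 below and the others above all WT libraries. Its log2 fold change was +0.05 (SE 0.26) with all libraries, +0.25 (SE 0.15) without KO replicate 1 and -0.16 (SE 0.29) without KO replicate 2. The difference between the chains was not tested.

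**Figure D3:**
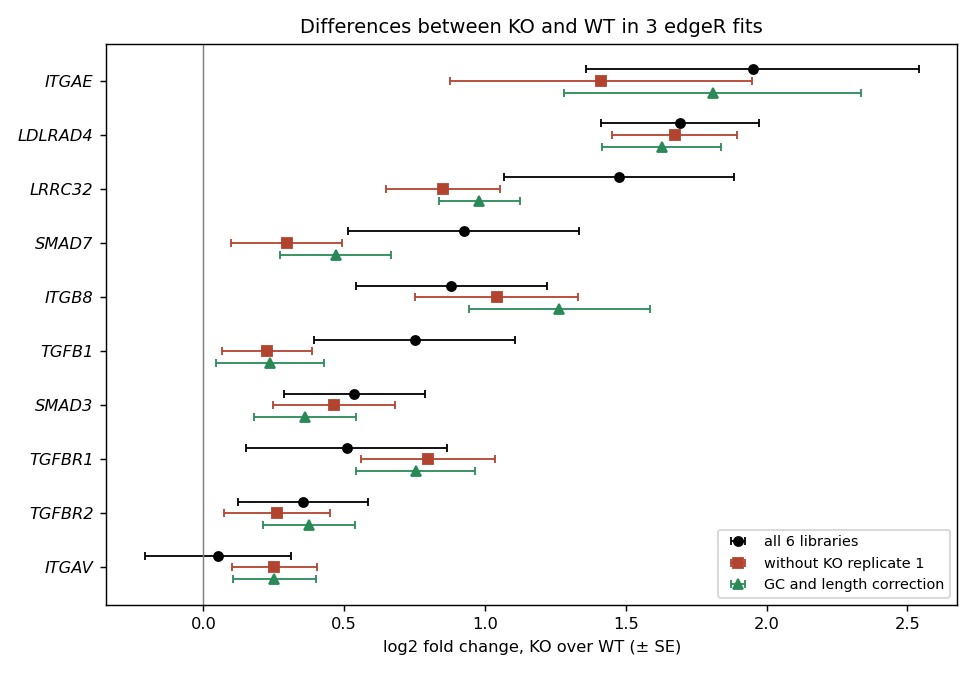
Log2 fold change of KO over WT (x axis) with its standard error for each member, from all 6 libraries (black), without KO replicate 1 (red) and after a correction for GC content and length (green). LDLRAD4 stays between +1.63 and +1.69, whereas TGFB1 is at +0.75 in the first and at +0.23 and +0.24 in the others.

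With all 6 libraries the receptors had smaller log2 fold changes than LRRC32, a difference that was not tested. Without KO replicate 1, LRRC32 (+0.85) and TGFBR1 (+0.80) lay close together. TGFBR1, the type I receptor kinase, was at 79.0, 196 and 151 CPM in KO replicates 1 to 3 and at 104, 123 and 71.6 CPM in libraries labelled WT 1 to 3. KO replicates 2 and 3 lay above all WT libraries, and KO replicate 1 lay within the WT range. Its log2 fold change of +0.51 (SE 0.36, edgeR adjusted p = 0.752) was +0.80 (SE 0.24) without KO replicate 1, +0.75 (SE 0.21) after the correction and +0.20 without KO replicate 2. TGFBR2, the type II receptor that binds the ligand first, was at 78.9, 73.3 and 58.5 CPM in KO replicates 1 to 3 and at 49.4, 50.6 and 64.9 CPM in libraries labelled WT 1 to 3. KO replicate 3 lay below the library labelled WT replicate 3, and the log2 fold change was +0.35 (SE 0.23, edgeR adjusted p = 0.735). Without KO replicate 1 it was +0.26 (SE 0.19), and after the correction +0.38 (SE 0.16).

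SMAD3, which carries the signal to the nucleus, had little spread among the KO libraries. It was at 51.6, 43.6 and 46.3 CPM in KO replicates 1 to 3 and at 31.6, 25.6 and 40.4 CPM in libraries labelled WT 1 to 3. The groups did not overlap, with the library labelled WT replicate 3 nearest to KO. Its log2 fold change was +0.54 (SE 0.25, edgeR adjusted p = 0.667), +0.47 (SE 0.22) without KO replicate 1 and +0.36 (SE 0.18) after the GC and length correction. Of the other SMAD genes tested, SMAD1, SMAD2, SMAD4 and SMAD5 had log2 fold changes between -0.05 and +0.05 with all 6 libraries. Without KO replicate 1 they stood at +0.06, +0.21, +0.03 and +0.13. After the GC and length correction they stood at -0.09, +0.22, -0.05 and +0.14.

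SMAD7, an inhibitory SMAD that is itself induced by TGF-beta, was separated from WT by a narrow margin outside KO replicate 1. It was at 49.97, 21.1 and 16.9 CPM in KO replicates 1 to 3 and at 15.0, 16.0 and 15.5 CPM in libraries labelled WT 1 to 3. The KO libraries spread by 61.3% and the WT libraries by 3.50% (coefficient of variation). Its log2 fold change was +0.92 (SE 0.41, edgeR adjusted p = 0.662), +0.30 (SE 0.20) without KO replicate 1 and +0.47 (SE 0.20) after the correction.

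LDLRAD4, a membrane protein that keeps SMAD2 and SMAD3 from the receptor in human cells, had the smallest p of the members. It was at 18.4, 19.8 and 15.7 CPM in KO replicates 1 to 3 and at 5.15, 6.04 and 5.49 CPM in libraries labelled WT 1 to 3, or 18.0 ± 2.05 CPM in KO and 5.56 ± 0.449 CPM in WT (mean ± SD, n = 3 each). All KO libraries lay above all WT libraries, and KO replicate 1 was not the highest. The log2 fold change was +1.69 (SE 0.28), or 3.23-fold, and its unadjusted p ranked 12 among 11772 genes. The edgeR adjusted p was 0.231, the DESeq2 adjusted p 1.503e-06, and the edgeR adjusted p after the GC and length correction 0.0392 (log2 fold change +1.63, SE 0.21). Without KO replicate 1 it stood at +1.67 (SE 0.22, edgeR adjusted p = 0.0966). Over all alternatives the adjusted p ran between 1.503e-06 and 0.999, the highest without the library labelled WT replicate 1. With each library left out in turn, the log2 fold change lay between +1.62 and +1.76. In GENCODE vM21 its exons overlap 2798 bases of FAM210A on the opposite strand, and since the strand setting of the counting is not given in the sources used here, reads of these genes cannot be told apart. FAM210A was lower in KO, at 35.0, 73.3 and 67.6 CPM in KO replicates 1 to 3 and at 97.9, 88.9 and 106.9 CPM in libraries labelled WT 1 to 3 (log2 fold change -0.74, SE 0.30, edgeR adjusted p = 0.651).

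ITGAE, the CD103 chain that binds E-cadherin together with the product of ITGB7, had the largest log2 fold change of the members and the largest standard error. It was at 71.6, 46.5 and 14.1 CPM in KO replicates 1 to 3 and at 9.99, 17.9 and 6.42 CPM in libraries labelled WT 1 to 3. KO replicates 1 and 2 were above all WT libraries, and KO replicate 3 lay below WT replicate 2. The log2 fold change was +1.95 (SE 0.59), or 3.86-fold, with an edgeR adjusted p of 0.513 and a DESeq2 adjusted p of 0.0552, the lowest over all alternatives (up to 0.999). It was +1.41 (SE 0.54) without KO replicate 1 and +1.81 (SE 0.53) after the correction. The gene HASPIN lies in the ITGAE locus on the opposite strand with no overlap of exons, and stood at 39.8, 41.4 and 40.7 CPM in KO replicates 1 to 3 and 44.0, 41.9 and 38.6 CPM in libraries labelled WT 1 to 3. ITGB7 was at 113, 41.8 and 34.8 CPM in KO replicates 1 to 3 and 31.7, 37.8 and 68.7 CPM in libraries labelled WT 1 to 3 (log2 fold change +0.46, SE 0.48), and -0.27 without KO replicate 1.

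**Figure D4:**
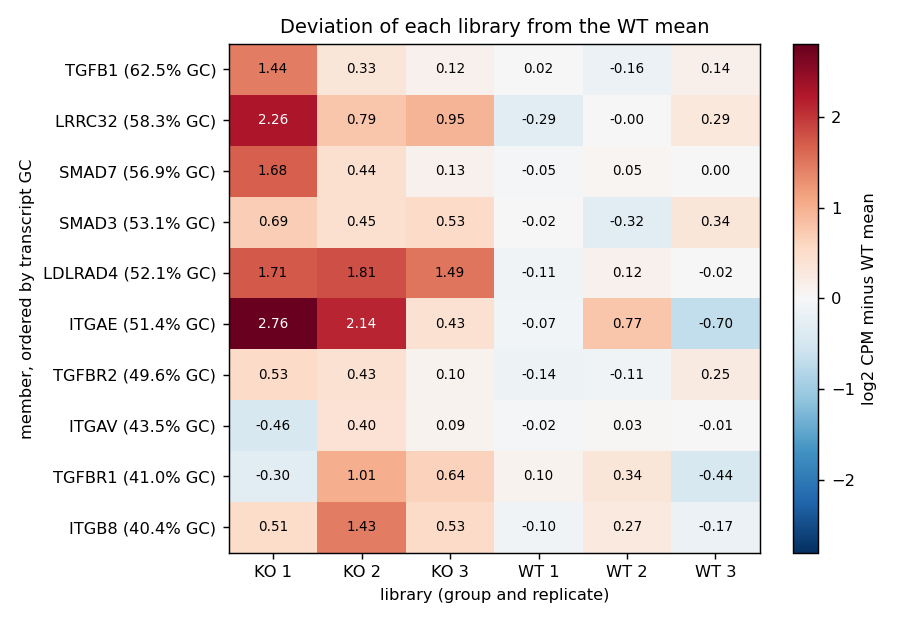
Log2 CPM of each member minus its WT mean (colour and printed value) in each library, with members ordered down the page by transcript GC content. LDLRAD4 is between 1.49 and 1.81 in all KO libraries, ITGAE is at 0.43 in KO replicate 3, and ITGAV (-0.46) and TGFBR1 (-0.30) are below 0 in KO replicate 1.

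Of the 10 members, 5 (LRRC32, ITGB8, SMAD3, SMAD7 and LDLRAD4) were higher in every KO library than in any WT library, against 7.48% of all genes. The choice of members with earlier results known can raise such shares, so the shares in this paragraph are not a test. An exact two-sided permutation test on log2 CPM gave p = 0.1 for each of these 5, the smallest that 3 against 3 libraries allow. With KO replicates 2 and 3 alone, 7 members lay above all WT libraries (ITGAV and TGFBR1 added), against 13.4% of all genes. Without KO replicate 1, 5 members had an unadjusted p under 0.05 in the higher direction, against 5.17% of all genes, and after the GC and length correction 7 did, against 6.52%. KO replicate 1 was the highest library for 6 members (TGFB1, LRRC32, TGFBR2, SMAD3, SMAD7 and ITGAE) and KO replicate 2 for the other 4.

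Levels between genes were compared in FPKM, which is normalized for length. In KO the order was TGFB1 (157 ± 97.7 FPKM, mean ± SD, n = 3), LRRC32 (20.0 ± 14.0), ITGAV (19.2 ± 4.50), TGFBR1 (18.8 ± 6.74), TGFBR2 (11.7 ± 2.66), ITGAE (9.22 ± 6.57), SMAD3 (7.24 ± 1.26), LDLRAD4 (7.06 ± 0.991), ITGB8 (5.69 ± 2.24) and SMAD7 (5.44 ± 3.83). Among the KO libraries only TGFB1 was separated from its neighbour in this order, and the ranges of all other neighbours overlapped. In WT the order was TGFB1 (87.6 ± 11.04 FPKM), ITGAV (18.3 ± 1.02), TGFBR1 (13.1 ± 3.29), TGFBR2 (8.93 ± 1.74), LRRC32 (6.83 ± 1.68), SMAD3 (4.82 ± 1.25), ITGB8 (2.96 ± 0.557), SMAD7 (2.69 ± 0.199), ITGAE (2.24 ± 1.19) and LDLRAD4 (2.16 ± 0.231). Ranges of neighbours did not overlap between TGFB1 and ITGAV, between ITGAV and TGFBR1, and between SMAD3 and ITGB8. LRRC32 thus had the second highest mean level in KO and the fifth highest in WT, with KO replicate 1 (36.2 FPKM) above KO replicates 2 and 3 (11.4 and 12.5 FPKM).

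The promoter windows of ITGB8 and SMAD3, members whose groups did not overlap, are shown for the core SMAD motif CAGAC, searched on both strands (GTCTG on the other, in capitals where found). They run from 250 bases before to 50 after the RefSeq start (build GRCm38.p6, minus strand), ITGB8 at chr12:119238227-119238526 and SMAD3 at chr9:63757945-63758244.
ITGB8: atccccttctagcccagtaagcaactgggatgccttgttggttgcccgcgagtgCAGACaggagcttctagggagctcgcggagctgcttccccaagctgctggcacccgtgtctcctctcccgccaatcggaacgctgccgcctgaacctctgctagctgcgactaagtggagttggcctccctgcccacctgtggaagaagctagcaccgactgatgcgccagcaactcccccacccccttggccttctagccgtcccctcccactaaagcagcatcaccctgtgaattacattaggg
SMAD3: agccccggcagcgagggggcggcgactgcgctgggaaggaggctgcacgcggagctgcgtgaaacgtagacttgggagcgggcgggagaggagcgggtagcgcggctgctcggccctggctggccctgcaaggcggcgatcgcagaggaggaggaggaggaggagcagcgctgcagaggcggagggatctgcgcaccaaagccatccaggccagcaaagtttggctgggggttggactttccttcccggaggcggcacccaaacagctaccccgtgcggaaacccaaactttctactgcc

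ITGB8 holds 1 match and SMAD3 holds 0. Over 7 windows used for 6 members (TGFB1, ITGB8, ITGAV, TGFBR1, TGFBR2 and SMAD3), 3 held the motif, against 49.6% of 32851 windows of the same length. TGFBR1 entered with more than 1 window, and not each of these held the motif. No window was found under the symbols LRRC32 and ITGAE. SMAD7 and LDLRAD4 were left out of the member windows by a rule on their chromosome, which was not applied to the 32851 windows. The motif is short, and a match is a description of letters.

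Among other genes of the pathway few passed a test. Of 68 listed, 62 were tested, 40 had a log2 fold change above 0 and the median was +0.11, with 0 called by edgeR and 8 at an unadjusted p under 0.05, against 7.51% of all genes. DESeq2 called 2 of the 62, against 1.1% of all genes, among them CTGF (adjusted p = 0.0127), higher in KO. For 9 of the 62 the groups did not overlap, against 15.7% of all genes. Among ligands and latency genes, 7 of 11 were above 0, and those with the smallest p were TGFB3 (-2.48, SE 1.09), the GARP relative NRROS (+0.63, SE 0.45), the TGF-beta activator THBS1 (+0.84, SE 0.77) and the latency protein gene LTBP3 (-1.10, SE 1.06). NRROS stood at -0.11 without KO replicate 1. Among 9 other receptors 7 were above 0, led by ACVR1 (+0.47, SE 0.32) and ACVR1B (+0.37, SE 0.30), type I receptors of the superfamily, with BMPR1A at -0.31 and ENG at +0.48. Without KO replicate 1 both turned sign, BMPR1A to +0.06 and ENG to -0.99 (SE 0.49), and after the GC and length correction ENG was at -0.17 and BMPR1A at -0.14.

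Signal modulators split evenly, with 9 of 18 above 0 and a median of -0.02. SKI, a nuclear repressor of SMAD proteins, was at 196, 152 and 143 CPM in KO replicates 1 to 3 and 116, 100.1 and 95.7 CPM in libraries labelled WT 1 to 3. The groups did not overlap, and the log2 fold change was +0.66 (SE 0.23, edgeR adjusted p = 0.593). It was +0.51 (SE 0.15) without KO replicate 1 and +0.36 (SE 0.19) after the GC and length correction. The next were the deubiquitinase USP11 (-0.86, SE 0.38), the feedback inhibitor PMEPA1 (+0.56, SE 0.31), which is related to LDLRAD4 and was +0.29 without KO replicate 1, and the receptor-binding protein STRAP (-0.42, SE 0.25).

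Of 9 tested genes that TGF-beta induces in many cell types, 8 were above 0 (5 without KO replicate 1), with a median of +0.62 (+0.31 without KO replicate 1). CTGF, a classical target, was higher in KO, at 8.82, 6.72 and 5.61 CPM in KO replicates 1 to 3 and 2.71, 2.31 and 1.04 CPM in libraries labelled WT 1 to 3 (log2 fold change +1.81, SE 0.45, edgeR adjusted p = 0.378). The cell cycle inhibitor CDKN2B stood at +2.31 (SE 0.72) and ID1 at +1.07 (SE 0.63), and without KO replicate 1 they stood at +1.36 and +0.31. Both were at low levels. CDKN2B was at 3.34, 1.21 and 0.602 CPM in KO replicates 1 to 3. In libraries labelled WT 1 to 3 it was at 0.181, 0.51 and 0.359 CPM, or 4, 13 and 10 counts. ID1 was at 4.75, 1.96 and 1.203 CPM in KO replicates 1 to 3 and 1.72, 1.57 and 0.574 CPM in libraries labelled WT 1 to 3.

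Of 9 tested genes that TGF-beta represses in T cells, 6 were above 0, with a median of +0.10. The granule protease GZMB (-1.20, SE 0.34) and the death ligand FASL (-0.998, SE 0.37) were lower in every KO library, while the transcription factors EOMES (+0.85, SE 0.34) and TBX21 (+0.43, SE 0.30) stood on the other side of 0 with overlapping groups. TBX21 was at +0.15 without KO replicate 1 and at +0.07 after the GC and length correction, and EOMES at +1.04 and +0.74. CDH1, which encodes E-cadherin, the ligand of CD103, was at 0.802 to 1.23 CPM in KO and 0.181 to 0.431 CPM in WT (log2 fold change +1.72, SE 0.54, edgeR adjusted p = 0.529).

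**Figure D5:**
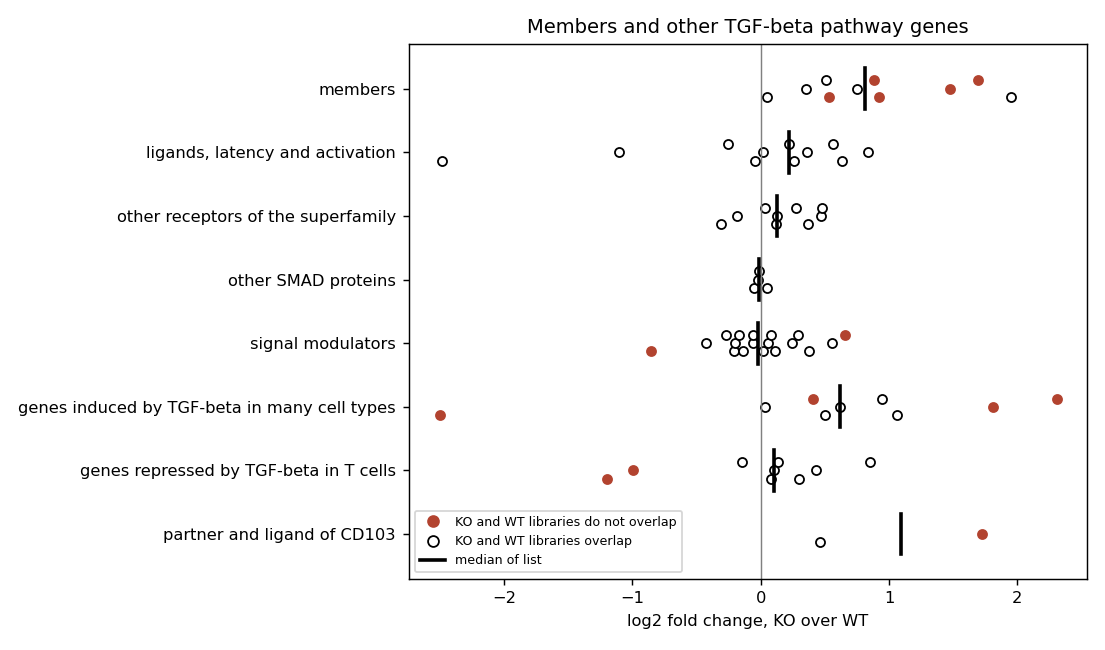
Log2 fold change of KO over WT (x axis), from all 6 libraries, of the 10 members and of each other list of pathway genes. Red points are genes whose KO and WT libraries do not overlap, open points are genes whose libraries overlap, and black bars are list medians. The member median is +0.82 and the other SMAD genes lie within 0.06 of 0.

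Markers of the labelled cell type were present, and those of most other cell types were near 0. Of 8 Treg and CD4 T cell markers 6 were above 0, with FOXP3 at 464, 357 and 413 CPM in KO replicates 1 to 3 and 160, 121 and 104 CPM in libraries labelled WT 1 to 3 (log2 fold change +1.68, SE 0.25, edgeR adjusted p = 0.197). CTLA4 (-0.79, SE 0.46) and IL2RA (-0.09, SE 0.32) were below 0, with overlapping groups. TNFRSF18 was at 469, 208 and 213 CPM and TNFRSF4 at 735, 351 and 328 CPM in KO replicates 1 to 3, both highest in KO replicate 1. In libraries labelled WT 1 to 3, TNFRSF18 was at 198, 243 and 282 CPM and TNFRSF4 at 361, 346 and 336 CPM. For both genes KO replicates 2 and 3 lay within or below the WT range. In these bulk libraries, fewer cells of a type and less RNA per cell cannot be told apart. The CD8 T cell markers CD8A and CD8B1, whose cells can carry CD103, summed to 38.9 to 60.5 CPM in KO and 193 to 269 CPM in WT, lower in every KO library. Platelet and megakaryocyte markers (6 genes), whose cells hold TGF-beta and GARP, summed to 2.79, 0.604 and 0.401 CPM in KO replicates 1 to 3 and to 0.118 to 0.395 CPM in WT. Dendritic cell markers (5 genes, CLEC9A at 0) summed to 2.31 to 5.17 CPM in KO and 1.99 to 2.67 CPM in WT. Macrophage and monocyte markers (6 of 7 in the table, CSF1R and LYZ2 at 0) summed to 0.302 to 0.823 CPM in KO and 0.0904 to 0.287 CPM in WT. B cell markers (4 genes) summed to 0.702 to 4.75 CPM in KO and 2.55 to 4.23 CPM in WT, and NK cell markers (4 genes, KLRA4 and KLRA8 at 0) to 1.19 to 3.92 CPM in KO and 0.235 to 0.825 CPM in WT. Endothelial and stromal markers (6 genes, CDH5 and DCN at 0) summed to 22.3 to 36.4 CPM in KO and 16.8 to 44.1 CPM in WT, almost all of it PECAM1, and erythroid markers (3 genes) to at most 0.0359 CPM. A count of 0 in every library can be a missing value, since the ribosomal protein gene RPL26 is also listed at 0. The part of these markers in the differences of the members was not tested.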

How the data were processed

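RNA came from 3 KO and 3 WT mice, and stranded mRNA libraries with single reads of 75 bp went through the VIPER pipeline, per the labels and the design text. The aligner was STAR 2.4.2a, per the file headers, and the build mm9, per the submitters' processing notes. How reads were counted, on which strand and with which annotation, is not given in the sources used here. Titles and protocols name nTreg cells, and these were followed over the source field, which names effector CD4 T cells. Deposited were raw counts for 24982 symbols, FPKM values for 24917 of them, and an alignment report in percent and read totals (uniquely mapped reads 77.45% to 81.33% of input).

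The main test was edgeR 4.0.16 in R 4.3.3 with TMM scaling, the filterByExpr filter (minimum count 10), its quasi-likelihood test and adjustment by Benjamini-Hochberg over all 11772 genes at 0.05. Standard errors come from the F statistic, and CPM are TMM-normalized. A count of 3 corresponds to 0.108 to 0.301 CPM. DESeq2 1.42.0 and limma 3.58.1 were alternatives. GC content and length are of the longest coding transcript in GENCODE vM21 (99.4% of genes tested), and the correction removed each library's loess trend against both. Sex, a covariate in 1 alternative, was read from sex-linked genes. The fits were tested on simulated data. FPKM over CPM was constant per gene, with an SD under 0.1 on the log2 scale across libraries for 95.0% of 6242 genes. Replicate numbers were not taken as pairs, since no label says that they pair animals. By the sex-linked genes, replicates 1 and 3 of both groups were female and replicate 2 of both was male. Deviations from group means correlated at -0.361, 0.145 and 0.138 for numbers 1 to 3. The first value includes the GC trend of KO replicate 1, so these correlations cannot settle whether the numbers pair animals.

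The members and lists were chosen with earlier results of these data known. Named genes are the 10 members, SRSF1, up to 4 genes with the smallest p in each other list, cell type markers, and the 3 genes most correlated with TGFB1. FAM210A, HASPIN and RPL26 were added after the data were seen. Some genes that this rule includes are not reported here.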

Additional observations from a re-analysis of the deposited data

How the results depend on the processing

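No member was called lower under any setting, and 0 were called higher except by DESeq2 (1), in 2 against 2 libraries, without KO replicate 1 and WT replicate 3 as labelled (2), with the GC and length correction (1) and with both (1). The last 2 settings were chosen after seeing the data. Over all genes, edgeR called 0 higher and 2 lower. The counts were 3 higher and 3 lower without a filter, 94 higher and 35 lower with DESeq2, 64 higher and 16 lower with 2 against 2 libraries, 10 higher and 5 lower with the correction, and 26 higher and 9 lower with both. Voom called 1 lower. The sex covariate, limma on log2(FPKM + 1) and limma on log2(FPKM + 0.1) called 0 lower, with 695, 1040 and 1033 genes at an unadjusted p under 0.05. With the replicate block edgeR called 1 higher and 0 lower (694 at an unadjusted p under 0.05), with 0 members called. The numbers are not shown to pair animals. Leaving out 1 library in turn gave 0 to 1 higher and 0 to 2 lower, with 509 to 1272 genes at an unadjusted p under 0.05. Among the members' log2 fold changes only ITGAV changed sign under any setting run, to -0.16 without KO replicate 2, and it lay between -0.16 and 0.25 with 1 library left out. The cause was not tested. Median shifts of all genes stayed within 0.06 on the log2 scale. LDLRAD4 had the lowest mean CPM of the members in both groups, with 114 to 403 counts per library. An effect of depth was not tested.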

Other observations

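The library labelled WT replicate 3 was highest for several pathway genes of low level, chosen here after their values were seen. TGFB3, another TGF-beta ligand, was at 1.6, 1.36 and 1.203 CPM in KO replicates 1 to 3, and at 1.36, 0.941 and 21.1 CPM in libraries labelled WT 1 to 3. LTBP3, a latent TGF-beta binding protein, was at 1.69, 1.06 and 0.201 CPM in KO replicates 1 to 3, and at 0.723, 0.275 and 5.60 CPM in libraries labelled WT 1 to 3. ACVRL1, a type I receptor best known from endothelium, was at 4.8, 2.26 and 1.203 CPM in KO replicates 1 to 3, and at 1.084, 1.57 and 6.89 CPM in libraries labelled WT 1 to 3. The negative log2 fold changes of TGFB3 and LTBP3 therefore rest on 1 library.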
